A study of Mus musculus with 6 samples.

Results

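The complement genes described here are 9 mouse genes of the complement system, namely C1qa, C1qb, C1qc, C4b, C3, Cfp, C3ar1, C5ar1 and Itgb2, out of 23462 genes named on the array. A gene was represented by every non-control probe whose transcript accession mapped to its symbol, which gave 12 probes. Gene expression was measured with 1-colour Agilent arrays in microglia from male mice, labelled as aged 10 weeks, with 3 arrays per group. The PGC-1αf/f group carried a loxP-flanked PGC-1α allele joined to an IRES-eGFP tag on a C57BL/6 background. The mPGC-1α group carried this allele together with a tamoxifen-inducible Cre recombinase (cre/ERT2) placed in the Cx3cr1 locus, and the methods name littermate PGC-1αf/f mice as controls. Tamoxifen was given on consecutive days, followed by an interval. Per the study's methods and results, both genotypes received it in the stroke and imaging experiments, and the treatment of the mice behind the arrays is not described separately. Recombination depends on activity of the Cx3cr1 locus, which circulating monocytes and brain macrophages also use. The paper states that the interval, as used before the stroke experiments, keeps the overexpression specific to microglia and not macrophages. For the cells on these arrays this was not tested. Cells were positively selected with magnetic beads against P2RY12, a purinergic receptor of microglia. The labels do not say whether each array came from a mouse of its own, so p-values measure the spread between these arrays.

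Complement is a cascade of soluble proteins that tags targets for removal. C1q, built from the chains encoded by C1qa, C1qb and C1qc, recognises targets and starts the classical pathway, C4 and C3 are then cleaved and deposited as opsonins, and properdin, encoded by Cfp, stabilises the convertase of the alternative pathway. The released fragments C3a and C5a act on the receptors C3ar1 and C5ar1, and the integrin chain Itgb2 pairs with Itgam or Itgax to form phagocytic receptors for cleaved C3. Microglia are the main source of C1q in the brain and are known to clear complement-tagged synapses.

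Levels are given as log2 intensity minus the array's 75th percentile, so a level of 0 lies at that percentile, and a difference of 1 is 2-fold. The arrays had 27025 to 30272 of 59305 spots well above background, and none was saturated. To check the genotype labels, the targeted gene Ppargc1a was examined first. Its level was 0.19, -0.44 and -1.21 in PGC-1αf/f replicates 1 to 3 and 0.57, 0.28 and 0.077 in mPGC-1α replicates 1 to 3. The mPGC-1α mean was higher by 0.80 (SE 0.35, limma adjusted p = 0.306), and the groups overlapped. A second Ppargc1a probe gave 0.59 (SE 0.38, adjusted p = 0.445). With PGC-1αf/f replicate 3 left out, the probes gave 0.44 (SE 0.24) and 0.26 (SE 0.31). All 12 microglial markers, P2ry12 and Tmem119 among them, were well above background on every array. A pair of arrays stood apart. PGC-1αf/f replicate 3 correlated with the other arrays at a mean r of 0.928, against 0.962 to 0.972 for the rest, and mPGC-1α replicate 3 had 0 of 4 Y-linked genes well above background against 4 of 4 on each other array, although all mice were labelled male. The PGC-1αf/f arrays lay in row 1 and the mPGC-1α arrays in row 2 of the slide, so slide row and group cannot be told apart.

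To determine whether complement genes differed between the genotypes, the 12 probes were compared within a fit over all 25257 tested probes. All 12 were well above background on all 6 arrays and all were tested. None of the 9 genes passed an adjusted p of 0.05, where 0.0792% of all tested probes did (20 of 25257, limma with Benjamini-Hochberg adjustment), and none had an unadjusted p under 0.05, where 16.7% of all tested probes did. Of the 8 genes with a value on every array, 0 had separated groups (no overlap of values), against 25.2% of 22997 probes. The mPGC-1α mean was higher for 8 of the 9 genes and lower for C3ar1, and it was higher for 12541 of all 25257 tested probes. The median difference was 0.11 over the 9 genes, beside -0.0026 over all tested probes. Scaling by array medians instead (the median shift) set the zero point lower for all probes alike. The median difference was then -0.14 over all and -0.019 over the members. The mean was higher for 4 of 9 members, beside 8334 of all 25257 tested probes, so that signs of differences near 0 rest on the scaling. When PGC-1αf/f replicate 3 was left out, 5 of 9 had a higher mean and their median was 0.0067. Leaving out mPGC-1α replicate 3 gave 7 of 9 and 0.078, and leaving out both gave 5 of 9 and 0.00088, and no gene passed in any of these fits.

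**Figure D1:**
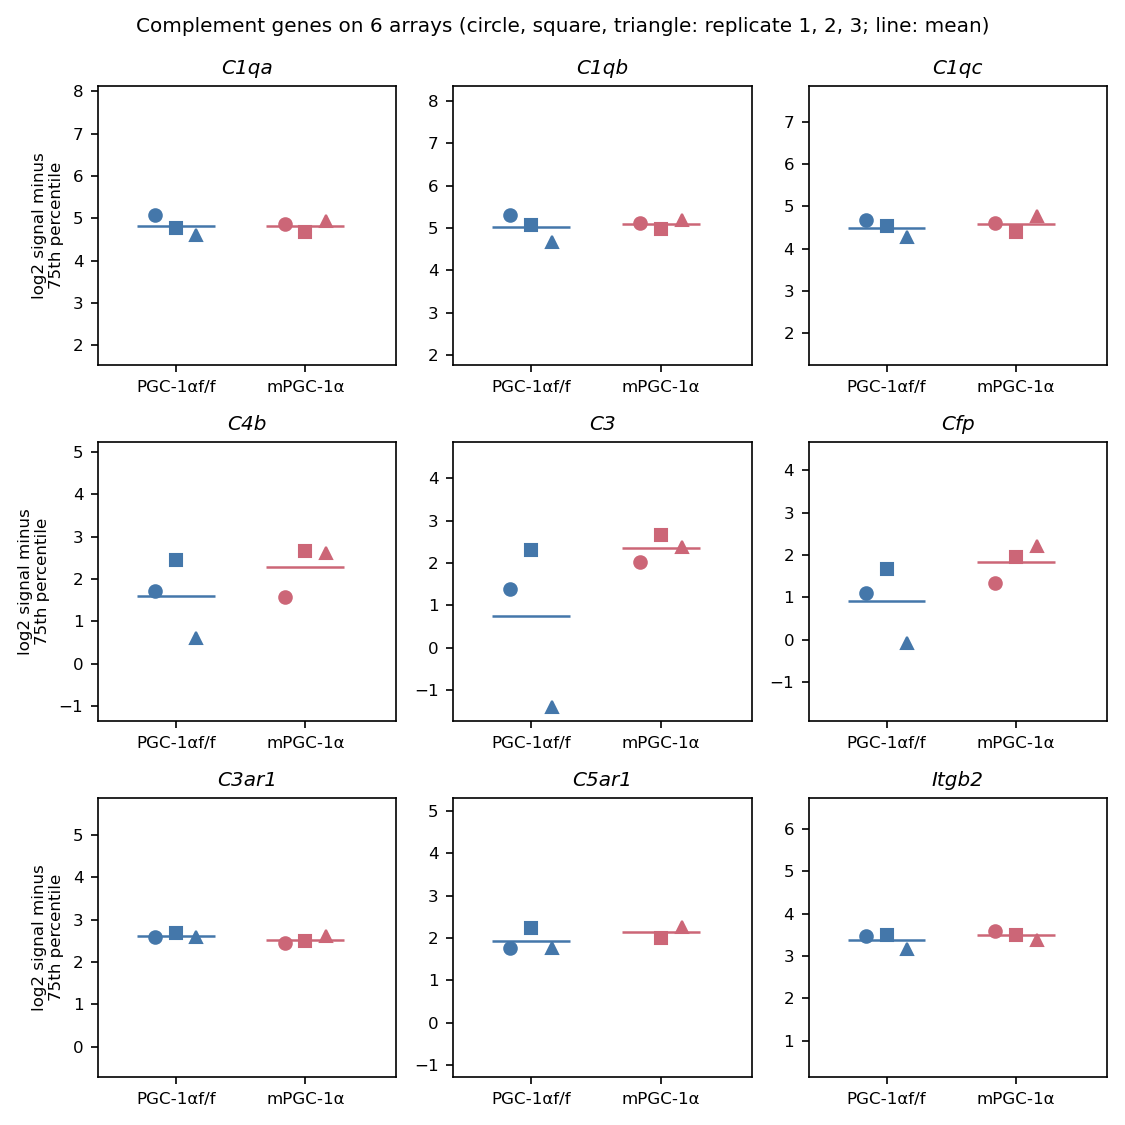
Level of each of the 9 complement genes (log2 signal after subtracting the 75th percentile, vertical axes of equal span) on the 3 PGC-1αf/f and 3 mPGC-1α arrays, with circle, square and triangle for replicates 1, 2 and 3 and a line at the group mean. The triangle of PGC-1αf/f lies far below the other arrays for C3, C4b and Cfp, C5ar1 lacks mPGC-1α replicate 1, and the groups overlap in every panel with 6 points.

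The 3 C1q chains, the recognition subunit of the classical pathway, differed little between the genotypes and little between arrays. The level of C1qa was 5.08, 4.78 and 4.61 in PGC-1αf/f replicates 1 to 3 and 4.87, 4.68 and 4.93 in mPGC-1α replicates 1 to 3. All mPGC-1α values lay inside the range of the controls. The group means were 4.82 ± 0.24 and 4.82 ± 0.13 (SD, n = 3), a difference of 0.0037 (SE 0.17, limma adjusted p = 0.993). The 95% confidence interval of that difference ran from -0.39 to 0.40, or from 0.764-fold to 1.32-fold, so larger shifts in either direction lay outside it.

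Next, C1qb gave levels of 5.30, 5.08 and 4.67 in the control arrays and 5.11, 4.98 and 5.18 in the mPGC-1α arrays. The difference was 0.071 (SE 0.19, 95% confidence interval -0.37 to 0.51, limma adjusted p = 0.865). The remaining chain, C1qc, had levels of 4.67, 4.53 and 4.28 in the control arrays and 4.61, 4.40 and 4.76 in the mPGC-1α arrays. Its difference was 0.092 (SE 0.17, 95% confidence interval -0.30 to 0.48, limma adjusted p = 0.797). For each of the 3 chains the lowest value was that of PGC-1αf/f replicate 3, which differed from the mean of the other 5 arrays by -0.26 for C1qa, -0.45 for C1qb and -0.31 for C1qc. Without that array the differences were -0.10 for C1qa, -0.10 for C1qb and -0.014 for C1qc, so that all 3 signs turned. With the median shift, which lowers all differences alike, they were -0.13, -0.061 and -0.040. The values within the slide columns that held both groups were negative for all 3, at -0.21 and -0.098 for C1qa, -0.19 and -0.095 for C1qb, and -0.069 and -0.13 for C1qc in columns 1 and 2.

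The C1q genes lie next to each other on chromosome 4, in the order C1qb, C1qc and C1qa. RefSeq promoter sequences were held for 6 of the 9 genes, and those of C1qb and C1qc are shown because these neighbouring genes encode chains of the same protein. Each line gives the 200 bases just before the start that the RefSeq promoter uses, in the direction of transcription, for C1qb at chr4:136886201-136886400 and for C1qc at chr4:136892915-136893114, both on the minus strand of GRCm38.p6. Capitals mark matches on either strand to AGGAAG, the core bound by PU.1, or to TTNNGNAA, a C/EBP consensus, both being factors of the myeloid lineage.
C1qb: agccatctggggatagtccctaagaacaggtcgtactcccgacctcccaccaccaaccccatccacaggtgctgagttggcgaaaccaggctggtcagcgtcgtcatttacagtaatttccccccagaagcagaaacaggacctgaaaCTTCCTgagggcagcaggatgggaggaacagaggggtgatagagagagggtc
C1qc: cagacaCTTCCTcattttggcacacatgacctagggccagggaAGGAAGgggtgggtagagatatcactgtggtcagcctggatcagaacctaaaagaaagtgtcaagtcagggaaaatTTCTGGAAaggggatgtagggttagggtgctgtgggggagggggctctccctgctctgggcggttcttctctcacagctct
C1qb held 1 PU.1 match, 52 bases before the start, and C1qc held 2 PU.1 matches and 1 C/EBP match. A PU.1 match was found in 24.7% and a C/EBP match in 30.0% of 32851 windows of the same length, so such matches are common. TATAAA, the TATA box, was searched as well, occurred in 9.96% of windows, and matched none of the 6 genes. The motifs were chosen after the expression values had been seen, and the matches are a description of these letters only.

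The opsonin precursors are encoded by C3 and C4b, and C3 had the widest spread of the members. C3, the protein on which all complement pathways converge, gave levels of 1.39, 2.30 and -1.41 in PGC-1αf/f replicates 1 to 3 and 2.03, 2.66 and 2.38 in mPGC-1α replicates 1 to 3. PGC-1αf/f replicate 3 was far below every other array, whereas PGC-1αf/f replicate 2 lay above mPGC-1α replicate 1. The group means were 0.76 ± 1.93 and 2.36 ± 0.31 (SD, n = 3). The difference was 1.60 (SE 0.86, 95% confidence interval -0.45 to 3.65, limma adjusted p = 0.380), or 3.03-fold. A second C3 probe had a difference of 1.88 (SE 0.88, adjusted p = 0.333), with PGC-1αf/f replicate 3 at -2.0 and the other arrays at 0.67 to 2.38.

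Leaving out PGC-1αf/f replicate 3, the C3 difference was 0.52 (SE 0.30, limma adjusted p = 0.538) for the first probe and 0.81 (SE 0.39, adjusted p = 0.447) for the second. The within-column values were 0.64 in slide column 1 and 0.36 in column 2. C3 passed the threshold in 1 of 19 alternatives, the deposited table without normalization between arrays (1.56, adjusted p = 0.0183). The promoter of C3 is shown because C3 varied most across the arrays, at chr17:57228137-57228336 on the minus strand, with capitals as above.
C3: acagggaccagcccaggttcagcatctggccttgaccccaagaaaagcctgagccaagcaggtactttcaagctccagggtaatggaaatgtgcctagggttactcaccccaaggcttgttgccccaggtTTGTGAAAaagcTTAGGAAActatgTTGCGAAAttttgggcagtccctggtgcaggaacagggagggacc
The window held 3 C/EBP matches, 70, 58 and 45 bases before the start, and no match to the PU.1 core. Of the other members with a window, C5ar1 held 3 PU.1 matches and 1 C/EBP match, and Cfp and C3ar1 held no match to either. Among the 32851 windows, 1.41% held 3 or more C/EBP matches and 0.764% held 3 or more PU.1 matches.

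C4b, the mouse C4 gene of the classical pathway, was measured by a pair of probes. The brighter probe gave 1.71, 2.44 and 0.61 in the control arrays and 1.58, 2.65 and 2.61 in the mPGC-1α arrays. The lowest value was again that of PGC-1αf/f replicate 3, and mPGC-1α replicate 1 lay below the other 2 controls. The difference was 0.70 (SE 0.50, 95% confidence interval -0.48 to 1.87, limma adjusted p = 0.491), and 0.89 (SE 0.58, adjusted p = 0.450) for the other probe. With PGC-1αf/f replicate 3 left out these were 0.21 (SE 0.37) and 0.25 (SE 0.35), and the within-column values of the brighter probe had opposite signs, at -0.13 and 0.21. C4a, a near-identical paralog of C4b, was nowhere well above background, and whether the C4b probes also capture C4a transcript was not tested.

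Cfp encodes properdin, the positive regulator of the alternative pathway, which neutrophils and monocytes store and release. Its level was 1.11, 1.68 and -0.071 in PGC-1αf/f replicates 1 to 3 and 1.33, 1.94 and 2.21 in mPGC-1α replicates 1 to 3. PGC-1αf/f replicate 3 was lowest and mPGC-1α replicate 3 highest, and the groups overlapped through PGC-1αf/f replicate 2. The difference was 0.92 (SE 0.45, 95% confidence interval -0.15 to 1.99, limma adjusted p = 0.348). A second probe gave 1.18 (SE 0.61, adjusted p = 0.364). Without PGC-1αf/f replicate 3 they were 0.43 (SE 0.29) and 0.47 (SE 0.32), and the first probe had within-column values of 0.22 and 0.27.

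**Figure D2:**
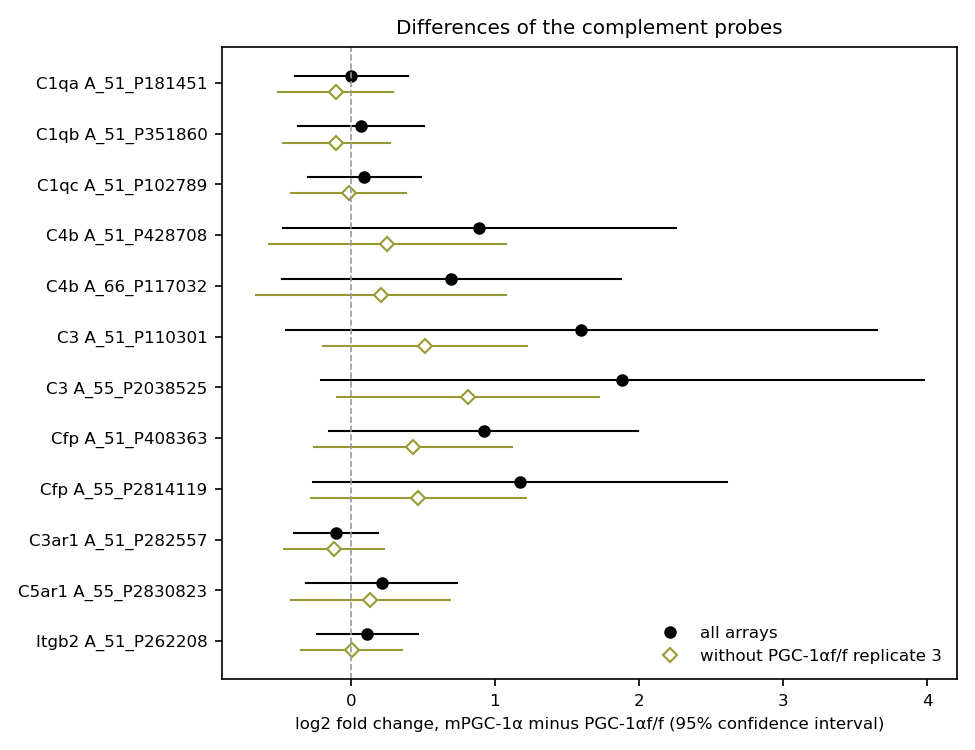
Difference in level (log2, mPGC-1α minus PGC-1αf/f) with its 95% confidence interval for each of the 12 complement probes over all arrays (filled circles) and without PGC-1αf/f replicate 3 (open diamonds). All intervals include 0, and the intervals of C3, C4b and Cfp narrow and move toward 0 without that array.

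The anaphylatoxin receptor C3ar1, which binds C3a, was the most even of the 8 members measured on every array. Its level was 2.58, 2.69 and 2.60 in the control arrays and 2.46, 2.50 and 2.60 in the mPGC-1α arrays. The highest mPGC-1α value equalled the middle control to 2 decimals, and PGC-1αf/f replicate 3 did not stand apart here. The difference was -0.10 (SE 0.12, 95% confidence interval -0.39 to 0.19, limma adjusted p = 0.692), and -0.11 without PGC-1αf/f replicate 3. C3ar1 was the one member whose mPGC-1α mean was lower, and it kept that sign in all 19 alternatives.

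C5ar1, the receptor for C5a, gave levels of 1.76, 2.23 and 1.76 in PGC-1αf/f replicates 1 to 3 and 2.00 and 2.27 in mPGC-1α replicates 2 and 3. The spot on mPGC-1α replicate 1 carried an outlier flag and was left out of the fit, and with flagged spots kept its level was 2.53. The difference over the remaining 5 arrays was 0.21 (SE 0.21, 95% confidence interval -0.31 to 0.74, limma adjusted p = 0.631). It was 0.078 without mPGC-1α replicate 3, 0.37 without PGC-1αf/f replicate 2 and 0.35 without mPGC-1α replicate 2, with 0.14 without PGC-1αf/f replicate 3 and 0.00088 without both arrays numbered 3. Its sign turned with normexp correction and quantile normalization (-0.063) and with array weights (-0.14).

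Itgb2, the beta chain shared by the leukocyte integrins, had levels of 3.47, 3.49 and 3.16 in the control arrays and 3.58, 3.50 and 3.38 in the mPGC-1α arrays. Each group had its lowest value on replicate 3, and the groups overlapped. The difference was 0.11 (SE 0.15, 95% confidence interval -0.24 to 0.46, limma adjusted p = 0.714), 0.0067 without PGC-1αf/f replicate 3, and -0.019 with the median shift. Its partner Itgam, the alpha chain of complement receptor 3, gave -0.015 (SE 0.17, adjusted p = 0.971) on the brighter probe and -0.47 (SE 0.35, adjusted p = 0.507) on the other. Itgax, the alpha chain of complement receptor 4, gave 0.51 (SE 0.22, adjusted p = 0.305).

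The members fell apart by how much they varied between arrays of the same genotype. The SD pooled within groups was 0.19 for C1qa, 0.23 for C1qb, 0.19 for C1qc, 0.15 for Itgb2 and 0.068 for C3ar1, beside a median of 0.22 over all tested probes. On the brighter probe it was 1.38 for C3, 0.78 for C4b and 0.71 for Cfp, against 1.41, 0.91 and 0.96 on the other probe. For the brighter probes, 99.2%, 97.2% and 96.2% of tested probes, respectively, had a smaller value. For C3ar1, 2.44% had a smaller value. On PGC-1αf/f replicate 3, 3 of 8 members lay at least 1 log2 unit below the mean of the other 5 arrays, as did 9.0% of all tested probes.

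Markers of other cell types were read on the same arrays. For 11 neutrophil markers with a value everywhere, the mean level was 2.74, 3.16 and -0.68 in PGC-1αf/f replicates 1 to 3 and 3.13, 3.31 and 3.40 in mPGC-1α replicates 1 to 3. PGC-1αf/f replicate 3 was thus low for neutrophil markers as for C3, C4b and Cfp. The log2 of the summed neutrophil signal was 4.94 to 7.22 in the control and 7.24 to 7.47 in the mPGC-1α arrays, and 10 of 12 markers exceeded background clearly on every array. Csf3r, which microglia also express, was the exception in its profile, with 3.94 on PGC-1αf/f replicate 3 and 3.89 to 4.12 elsewhere. None of the 12 neutrophil markers passed the adjusted threshold, and 9 of the 10 well above background on every array had a higher mPGC-1α mean.

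Markers of monocytes and lymphocytes had a mean level of -2.43 on PGC-1αf/f replicate 3 and of -0.81 to -0.14 on the other arrays. Among B cell markers, Cd79b was well above background on all 6 arrays (1.58 to 2.34, highest on PGC-1αf/f replicate 3), Ms4a1 on 2 mPGC-1α arrays and Cd79a on none. Endothelial and mural markers likewise had -3.04 on that array and -2.30 to -1.47 elsewhere. Of the mural markers, Pdgfrb was well above background on all 6 arrays (-2.71 to -2.09) and Rgs5 on none. The 2 erythroid genes with a value on every array were also low there, with a mean level of -0.89 against 0.71 to 1.98 elsewhere. Oligodendrocyte markers had the opposite pattern, with 0.41 on PGC-1αf/f replicate 3, -0.23 and -0.072 on the other control arrays and -0.66 to -0.96 on the mPGC-1α arrays, so that the groups did not overlap. The 6 that were well above background on every array had a median difference of -0.58, with 0 of 6 higher in mPGC-1α arrays, and none of the 8 passed the adjusted threshold. The groups overlapped for astrocyte markers, with -0.17 to 0.37 in the control and -0.13 to 0.91 in the mPGC-1α arrays, and for neuronal markers, with -1.73 to -1.08 and -1.53 to -1.13. All 8 markers of border macrophages, which also make C1q, exceeded background clearly on each array, with means of 0.72 to 0.96 in the control and 0.84 to 1.58 in the mPGC-1α arrays. The 12 microglial markers had a median difference of -0.24, and 1 of 12 had a higher mPGC-1α mean. Cx3cr1, the locus that carries Cre in the mPGC-1α group, differed by -0.51 (SE 0.14, limma adjusted p = 0.194), and its groups did not overlap. The Cre allele and the group coincide in this design, and an effect of the allele itself was not tested. In these bulk samples, fewer cells of a type and less RNA per cell cannot be told apart. The part of other cell types in the complement values was not tested. On PGC-1αf/f replicate 3, Itgb2 differed from the mean of the other 5 arrays by -0.33 and C3ar1 by 0.034, beside -3.56 for C3, -1.59 for C4b and -1.72 for Cfp.

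**Figure D3:**
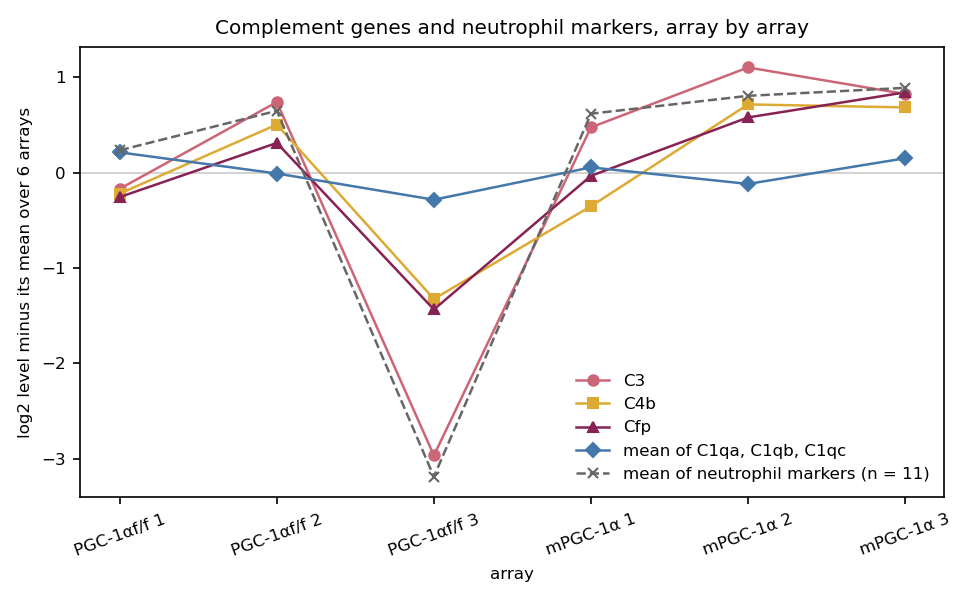
Level of C3, C4b, Cfp, the mean of the 3 C1q genes and the mean of 11 neutrophil markers on each array, each as log2 level minus its own mean over the 6 arrays. C3 (-2.97), C4b (-1.33), Cfp (-1.44) and the neutrophil markers fall on PGC-1αf/f replicate 3, whereas the C1q line stays close to 0 throughout.

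To describe which other genes followed these profiles, Pearson correlations over the 6 arrays were ranked among 12302 tested genes. The genes closest to the mean C1q profile were Nbdy (r = 0.999), Pcbp1 (r = 0.995) and Clta (r = 0.994). Those closest to C3 were Cebpe (r = 1.00), Adgrg3 (r = 0.999) and Acap1 (r = 0.998). All points share the 6 arrays, and the C3 profile is dominated by the low value of PGC-1αf/f replicate 3.

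Moreover, 46 further genes of the pathway were examined, of which 20 passed the filter on dim probes and 18 exceeded background clearly on every array. None passed an adjusted p of 0.05. The other 2 tested genes, Fcnb and Cd59b, were well above background on all mPGC-1α arrays but on 1 of 3 control arrays, so the filter admitted them through the group where they were high, and they are left out of the following counts. At an unadjusted p under 0.05, 4 of 18 were higher in mPGC-1α microglia (Cfb, Cd55, Cd93 and Fcna), where 6.14% of probes well above background on all arrays were, and 1 was lower (Csmd3), where 8.93% were. Of the 17 measured on every array, 5 had separated groups with mPGC-1α higher, against 10.1% of such probes, and 2 with mPGC-1α lower, against 13.8%. The mean was higher in mPGC-1α arrays for 14 of 18, beside 12541 of all 25257 tested probes, and the median difference of the 18 was 0.38. On the other 5 arrays, without PGC-1αf/f replicate 3, the median of the 17 genes tested was 0.22. In that fit 3 of the 17 had an unadjusted p under 0.05, beside 3148 of all 24962 tested probes. With the median shift the median of the 18 genes was 0.25, with 13 of 18 higher, beside 8334 of all 25257 tested probes.

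Among initiating factors, 3 of 12 genes were tested, and C1ra, a protease of the C1 complex, differed by 0.027 (SE 0.20, limma adjusted p = 0.956). Of 11 convertase and terminal components, 3 were tested, namely C2, Cfb and C8g. Hc, which encodes C5, and the terminal components C6, C7, C8a, C8b and C9 did not pass the filter. Cfb encodes factor B, the catalytic subunit of the alternative pathway convertase, and its gene lies next to C2. Its level was -1.65, -1.39 and -3.55 in the control arrays and -0.59, 0.44 and 0.77 in the mPGC-1α arrays, so that every mPGC-1α array lay above every control array. The difference was 2.41 (SE 0.61, limma adjusted p = 0.171), or 5.30-fold, and 2.13 (SE 0.59, adjusted p = 0.191) on a second probe. Without PGC-1αf/f replicate 3 it was 1.73 (SE 0.38, adjusted p = 0.148), and Cfb passed the threshold in 2 of 19 alternatives. Factor B and properdin act in the same convertase, but the groups did not overlap for Cfb and overlapped for Cfp. Whether these differences differ from each other was not tested.

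Of 15 regulators, 10 were tested. Csmd3, a large transmembrane protein with complement control domains, had levels of 2.04, 1.64 and 2.48 in the control arrays and 0.90, 1.00 and 0.90 in the mPGC-1α arrays. The groups did not overlap, and the difference was -1.12 (SE 0.22, limma adjusted p = 0.122), -1.19 on a second probe and -0.90 without PGC-1αf/f replicate 3. It passed the threshold in 1 of 19 alternatives. Cd55, a surface inhibitor that speeds decay of the convertases, had -0.87, -1.16 and -1.80 in the control arrays and -0.32, -0.69 and -0.42 in the mPGC-1α arrays. Its difference was 0.80 (SE 0.25, adjusted p = 0.225) and 0.54 without PGC-1αf/f replicate 3. A second Cd55 probe gave 0.73 (SE 0.24, adjusted p = 0.237). One more Cd55 probe was well above background on 0 of 3 control and 3 of 3 mPGC-1α arrays, entered through the group where it was high, and is given no test. Cd59b, an inhibitor of the membrane attack complex, had -2.93, -2.85 and -4.17 in the control arrays and -2.36, -2.71 and -1.87 in the mPGC-1α arrays, but 2 of the 3 control values were not well above background, and its difference is given no test.

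**Figure D4:**
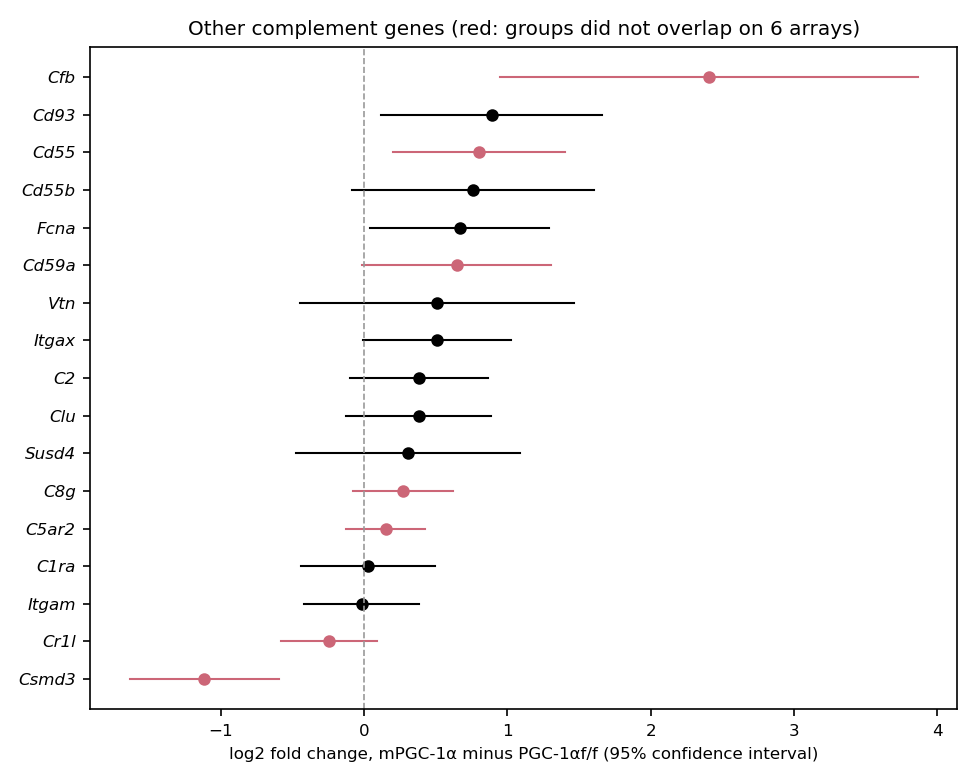
Difference in level (log2, mPGC-1α minus PGC-1αf/f) with its 95% confidence interval for the 17 other complement genes that were well above background and had a value on every array, 1 probe per gene, ordered by size, with genes whose groups did not overlap in red. Cfb lies at the top with 2.41 and Csmd3 at the bottom with -1.12, and none passed the adjusted threshold.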

How the data were processed

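Microglial RNA of 6 samples (3 PGC-1αf/f, 3 mPGC-1α, grouped by the labels) was hybridized by the authors to 1-colour Agilent mouse arrays with Cy5. The deposited scanner files give spot intensity after background subtraction and spatial detrending within the array. The deposited series values were the same intensity without normalization between arrays. The methods name GeneSpring normalization and no test per gene for the arrays.

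Control spots and outlier-flagged spots were excluded. The 75th percentile of an array was subtracted from its log2 intensity, and replicate spots were averaged per probe. A probe was called well above background if 0.5 or more of its spots had that flag. The test took probes so called on every array of either group, 25333 of 56605, of which 25257 gave a p-value. Probe accessions were matched to RefSeq genes of GRCm38.p6, giving 1 symbol for 33767 probes and 23462 genes. For counts, each gene was read from its brightest probe measured on all 6 arrays, or its brightest with any value where there was none. Limma 3.58.1 (lmFit and eBayes, two-sided, R 4.3.3, with the package data.table, version 1.17.8) was used with Benjamini-Hochberg adjustment over all tested probes and a threshold of 0.05, after being tested on simulated data. The number of arrays limits the precision.

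All members and every probe of theirs are named. Of the other pathway genes, those with unadjusted p under 0.05 and separated groups were named, at most 8, plus C4a, Itgam and Itgax. For the C1q mean and C3, the 3 genes of highest r were named. The targeted gene and markers beside a result were added, and C1ra, C2, C8g, Cd93, Fcna, Fcnb and the untested Hc, C6, C7, C8a, C8b and C9 were named after their values were seen, as were the further genes plotted. The members, gene lists and tests were chosen with earlier results of these data known. Alternatives were quantile normalization, median shift, normexp (offset 50, on median spot signals) with quantile normalization, the unnormalized deposited values, other filters on dim probes, a replicate block, a trended robust eBayes, array weights, a random block for slide column, a fit per gene, and omission of arrays. Keeping outlier spots was chosen after seeing the data. Promoter windows came from a RefSeq list. Figures used Python 3.11.15 with numpy 2.4.6, pandas 2.3.3 and matplotlib 3.10.9. A few listed genes are counted in their lists but not reported here by name.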

Additional observations from a re-analysis of the deposited data

How the results depend on the processing

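None of the 9 complement genes passed the threshold in any alternative except C3 in the deposited table without normalization (1 of 9). None of the other complement genes passed except 2 in that table (Cfb, and Fcnb, which the filter admitted only through the mPGC-1α group) and 3 with array weights (Cfb, Csmd3 and Cd55). Over all probes, 20 passed in the reported fit, 11 with quantile normalization, 11 with the median shift, 11 with normexp and quantile normalization, 456 in the deposited table, 9 with no filter on dim probes, 4 with well above background required on all 6 arrays, 3494 with array weights, 138 with slide column as random block, 8 with genes in place of probes, and 2 without both arrays numbered 3. Leaving out 1 array at a time gave 0 to 24 probes, 0 complement genes and 0 other complement genes. The cause was not tested.

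C1qa turned sign with quantile normalization (-0.095), the median shift (-0.13), normexp and quantile normalization (-0.060), the deposited table (-0.030), array weights (-0.058), the slide column as random block (-0.038) and without both arrays numbered 3 (-0.15). C1qb turned with the median shift (-0.061), array weights (-0.052) and without both arrays (-0.14). C1qc turned with quantile normalization (-0.014), the median shift (-0.040), normexp and quantile normalization (-0.095), array weights (-0.061) and without both arrays (-0.10). C5ar1 turned with normexp and quantile normalization (-0.063) and array weights (-0.14), and Itgb2 with the median shift (-0.019). Leaving out 1 array at a time gave ranges of -0.10 to 0.13 for C1qa, -0.10 to 0.21 for C1qb, -0.014 to 0.19 for C1qc and -0.12 to 0.13 for Itgam. C5ar1 ranged from 0.078 to 0.37. C3 ranged from 0.52 to 2.37, C4b from 0.21 to 1.12 and Cfp from 0.43 to 1.31, the lowest value each time without PGC-1αf/f replicate 3 and the highest without PGC-1αf/f replicate 2. Without PGC-1αf/f replicate 2, 3 of 9 complement genes had an unadjusted p under 0.05 (C3, Cfp and C4b), with adjusted p-values of 0.250, 0.247 and 0.326. In that fit 3797 of all 25255 tested probes had an unadjusted p under 0.05.

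The replicate numbers were not taken to pair the arrays, since same-numbered arrays deviated together with r = 0.139, 0.127 and 0.0187. With the replicate number as a block, 0 probes passed, no complement gene passed, and C3 differed by 1.60 (adjusted p = 0.306). With 3 arrays per group and a spread as wide as that of C3, the confidence intervals were wide. On the brighter probes they ran from 0.733-fold to 12.5-fold for C3, 0.717-fold to 3.66-fold for C4b and 0.903-fold to 3.98-fold for Cfp. A 2-fold increase thus lay inside each of these intervals, and a 2-fold decrease lay outside each.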
